A study of Mus musculus with 30 samples.

Results

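Maternal-effect genes are transcribed in the growing oocyte, and their products act after ovulation, in the egg and the early embryo, before the embryo's own genome takes over. The 10 genes described here are Nlrp5, Ooep, Tle6, Khdc3, Padi6, Zar1, Npm2, Dppa3, Oosp1 and Bcl2l10. They were picked by name, as members of the subcortical maternal complex and as other maternal factors of the mouse oocyte. Earlier results of these data were known when they were chosen. All 10 were found once among the 50600 genes of the deposited table, and all 10 passed the filter of a mean of at least 5 normalized counts over the mice, which left 14646 genes to test.

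The ovaries came from 15 female C57BL/6 mice. DSS mice, 7 in all, received dextran sulfate sodium (DSS) at 3% in the water they drank over 7 days, while sexually immature. DSS damages the epithelium of the colon and so brings on colitis. The 8 control mice were their littermates. Left and right ovaries were taken separately from every mouse after it had reached sexual maturity, which gave 7 DSS left, 7 DSS right, 8 control left and 8 control right libraries. Mice are named by their number in the labels, such as DSS_11.2. An age at harvest and an estrous stage were not given in the sources used here. Libraries were made by CEL-Seq, which tags and sequences the 3' end of polyadenylated transcripts. Values are the authors' normalized counts, that is reads divided by 1 scaling factor per library. They are not divided by transcript length, so levels are compared between ovaries and not between genes.

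The subcortical maternal complex is a protein assembly under the plasma membrane of the mouse egg, in which NLRP5 (also called MATER), OOEP (FLOPED), TLE6 and KHDC3 (FILIA) are core members and with which PADI6 is associated. Mouse embryos from mothers that lack one of several of these proteins arrest at the first cleavage stages. The other members act in the storage of maternal mRNA (Zar1), in the chromatin of the egg and zygote (Npm2, Dppa3), or are oocyte proteins of other kinds (Oosp1, Bcl2l10). In a whole ovary these transcripts come from oocytes, a small share of the tissue. A lower level, scaled to the library, can mean fewer oocytes, less RNA per oocyte or more of other tissue in the sample. These cannot be told apart in bulk samples.

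The members lie on 8 chromosomes, with Khdc3, Bcl2l10 and Ooep on chromosome 9, where their spans start at 73101836, 75347758 and 78375809. RefSeq start sites of the build GRCm38.p6 were available for 7 of the 10 members (Nlrp5, Ooep, Tle6, Khdc3, Padi6, Zar1 and Oosp1), and the 250 bases before each were searched on both strands. In Nlrp5 and Padi6 the RefSeq start coincided with the start of the annotated gene. In the other 5 it lay 99 to 562 bases inside the annotated gene, farthest in Khdc3. The 5 windows below are shown because they hold the more specific motifs searched. They are written 5' to 3' on the strand of the gene. Capitals mark CANNTG, the E-box bound by FIGLA and other basic helix-loop-helix factors, and TAATTG or its reverse complement, a motif bound by the oocyte homeobox factor NOBOX.
Nlrp5 (GRCm38.p6, chr7:23385639-23385888, plus strand): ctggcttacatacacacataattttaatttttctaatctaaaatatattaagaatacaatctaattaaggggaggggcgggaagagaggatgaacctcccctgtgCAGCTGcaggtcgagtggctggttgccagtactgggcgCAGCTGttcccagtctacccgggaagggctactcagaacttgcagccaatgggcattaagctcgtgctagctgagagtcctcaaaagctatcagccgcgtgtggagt
Ooep (GRCm38.p6, chr9:78378589-78378838, minus strand): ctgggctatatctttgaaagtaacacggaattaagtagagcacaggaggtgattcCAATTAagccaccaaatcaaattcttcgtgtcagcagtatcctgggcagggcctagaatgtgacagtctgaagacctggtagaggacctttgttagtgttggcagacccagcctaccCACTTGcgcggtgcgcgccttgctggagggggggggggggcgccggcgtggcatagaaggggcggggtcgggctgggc
Tle6 (GRCm38.p6, chr10:81600901-81601150, minus strand): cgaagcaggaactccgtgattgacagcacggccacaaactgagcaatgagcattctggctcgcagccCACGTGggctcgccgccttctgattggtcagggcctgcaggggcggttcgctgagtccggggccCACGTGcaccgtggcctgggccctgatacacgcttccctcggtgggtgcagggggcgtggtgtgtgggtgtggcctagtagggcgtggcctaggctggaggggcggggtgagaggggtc
Padi6 (GRCm38.p6, chr4:140742644-140742893, minus strand): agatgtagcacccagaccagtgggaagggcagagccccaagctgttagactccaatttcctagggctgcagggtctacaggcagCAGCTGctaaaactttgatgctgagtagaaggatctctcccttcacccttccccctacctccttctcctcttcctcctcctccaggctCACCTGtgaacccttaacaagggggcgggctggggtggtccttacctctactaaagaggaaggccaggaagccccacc
Zar1 (GRCm38.p6, chr5:72581085-72581334, minus strand): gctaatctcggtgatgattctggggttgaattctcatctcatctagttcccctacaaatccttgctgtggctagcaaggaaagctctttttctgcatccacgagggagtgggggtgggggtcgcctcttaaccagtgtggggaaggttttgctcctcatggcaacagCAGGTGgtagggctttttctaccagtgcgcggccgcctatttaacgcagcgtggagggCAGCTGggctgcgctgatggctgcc

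CANNTG occurred in 7 of 7 windows, against 66.2% of all 32851 mouse promoter windows of the same length. CAGCTG, 1 form of CANNTG, was found in 3 of the 7 (Nlrp5, Padi6 and Zar1), against 13% of all windows. CACGTG, another form, was found in Tle6 alone among the 7, against 6.02% of all windows. TAATTG was found in Ooep alone, against 7.17% of all windows, and its letters there overlap a CCAAT. None of the 7 held TATAAA, which 12.4% of all windows hold. GGGCGG was present in 4 of 7, against 32.7% of all windows, and CCAAT in 5 of 7, against 33.8%. These are matches of letters in 7 short windows. They were not tested and do not say which factor acts there.

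All 30 libraries held reads of every member. Recovered reads per library ranged from 3095386 to 8564770, with a median of 4305815, and scaled totals from 4105009 to 4608158. Over all libraries the members' reads summed to between 557 for Khdc3 and 20212 for Tle6, and counting error alone would account for between 4.37% (Bcl2l10) and 42.4% (Npm2) of each member's variance over the 30 ovaries. Spearman's rho between a member's normalized count and the library's reads lay between -0.14 and 0.13 over the 30 ovaries. In 7 ovaries of 6 mice, the oviduct transcript Ovgp1 exceeded 5000 normalized counts. They were both ovaries of DSS_11.1, the left ovary of DSS_10.4 and of DSS_11.2, and the right ovary of control_10.5, of control_13.4 and of control_16.9. Ovgp1 was highest, at 66716, in the left ovary of DSS_11.2. The labelled tissue was borne out by its markers: the 10 granulosa cell markers were above 0 in every library, with summed normalized counts between 9422 and 25106. Of the 22 oocyte reference and transcription factor genes, 19 were above 0 in every library.

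The members' summed level overlapped between the treatment groups and differed widely between ovaries. The 10 members summed to 1355 to 2167 normalized counts in the DSS mice, as means of both ovaries, with a median of 1718, and to 1558 to 2292 in the control mice, with a median of 1794. The mean sum was 1733 ± 271 in DSS mice (SD, n = 7) and 1868 ± 308 in control mice (SD, n = 8), and the groups overlap over most of their range. The sum was lowest in the left ovary of DSS_11.2 (897) and next lowest in the right ovary of control_10.5 (1368) and the left ovary of DSS_10.4 (1370), all 3 among the ovaries with more than 5000 Ovgp1. The right ovary of control_13.5 came next (1428), with Ovgp1 at 145. The other ovaries over 5000 Ovgp1 ranked 5 and 10 from the lowest (left and right of DSS_11.1), 19 (right of control_13.4) and 22 (right of control_16.9). The highest sum was that of the right ovary of control_15.4 (2607). Among DSS mice, DSS_16.3 had the highest mean of both ovaries for each of the 10 members. Among control mice, control_15.4 or control_15.3 had the highest mean for 9 members, and control_13.4 for Ooep.

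**Figure D1:**
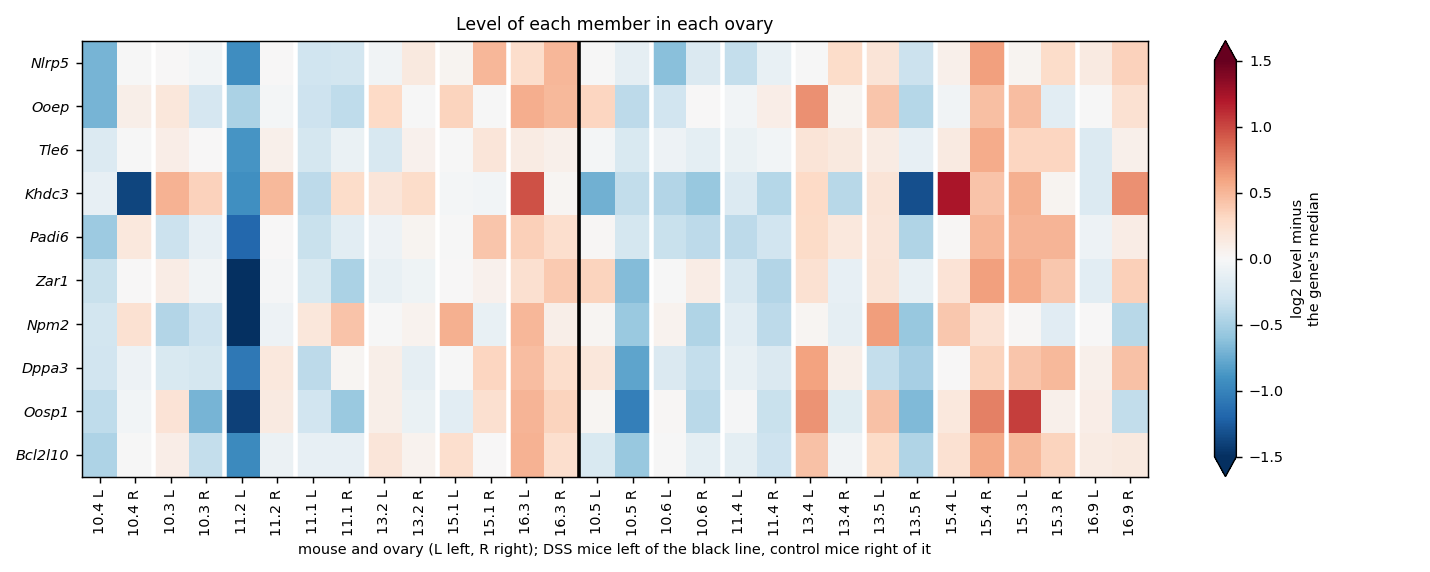
Level of each member (rows) in each of the 30 ovaries (columns, left and right of each mouse side by side), as log2(normalized count + 1) minus the gene's median over the 30 ovaries. Colours end at 1.5 in each direction, and the left ovary of DSS_11.2 is low in all 10 rows, past that end for Zar1 and Npm2, while its right ovary is pale in most rows.

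The level was below the member's median over the 30 ovaries for all 10 members together in 5 ovaries, the left ovaries of DSS_10.4, DSS_11.2 and control_11.4 and the right ovaries of control_10.5 and control_13.5. It was below the median for no member in both ovaries of DSS_16.3, in the right ovary of control_15.4 and in the left ovary of control_15.3. The left ovary of DSS_11.2 was the lowest of all 30 for 8 members, Ooep and Khdc3 being the exceptions. Zar1 stood at 19.2 normalized counts there, against 68.5 in the right ovary of the same mouse, and Npm2 at 10.7 against 30.9. Oosp1 had 21.3 in that left ovary and 64.0 in the right one.

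Within the core of the complex, Nlrp5 encodes its NLR-family scaffold (chromosome 7, 23385889 to 23442222, plus strand, in the deposited coordinates). Nlrp5 had 125 to 215 normalized counts in DSS mice, with a median of 162, and 123 to 213 in control mice, with a median of 171. Its DSS range lies almost wholly within the control range, with 1 DSS mouse, DSS_16.3, just above it. The difference of DSS minus control was -0.06 on the log2(normalized count + 1) scale (SE 0.13, limma, adjusted p = 0.923 over 14646 genes).

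Ooep encodes the KH-domain protein FLOPED (chromosome 9, 78375809 to 78378725, minus strand). Ooep had 53.6 to 98.1 normalized counts in DSS mice, with a median of 67.3, and 62.2 to 90.5 in control mice, with a median of 72.6. Here the DSS mice spread more widely, with 3 below and 1 above the control range. The log2 difference was -0.11 (SE 0.12, limma adjusted p = 0.829).

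Tle6 encodes a transducin-like protein of the complex (chromosome 10, 81590604 to 81601073, minus strand). Tle6 had 519.6 to 695 normalized counts in DSS mice, with a median of 613, and 596 to 836 in control mice, with a median of 638. Both groups overlap, with DSS_11.2 and 1 other DSS mouse below the control range. DSS minus control came to -0.13 (SE 0.08, limma adjusted p = 0.723). Its span overlaps that of Tle2 on the opposite strand, which averaged 76.9 normalized counts. The strand setting of the counting is not given in the sources used here, so the share of Tle6 reads that could come from Tle2 is uncertain.

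Khdc3 encodes FILIA, the KH-domain partner that in the mouse also guards chromosome segregation in early cleavage (chromosome 9, 73101836 to 73104738, plus strand). Khdc3 had 10.8 to 25.8 normalized counts in DSS mice, with a median of 16.8, and 11.5 to 32.2 in control mice, with a median of 15.2. It was the least deeply counted member, with 6 to 37 reads per library. The difference on that scale was 0.10 (SE 0.22, limma adjusted p = 0.923), and its 95% interval from -0.35 to 0.56 was the widest of the 10. Khdc3 overlaps the gene model Gm20509 on the same strand, which is at 0 in every library.

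Padi6 encodes a peptidylarginine deiminase family protein needed for the cytoplasmic lattices of the oocyte (chromosome 4, 140727055 to 140742643, minus strand). Padi6 had 135 to 231 normalized counts in DSS mice, with a median of 169, and 145 to 267 in control mice, with a median of 182. Only DSS_11.2 lay outside the control range, below it. On the log2 scale the difference was -0.10 (SE 0.13, limma adjusted p = 0.880).

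Among the other maternal factors, Zar1 encodes an RNA-binding protein that keeps maternal mRNAs stored in the oocyte (chromosome 5, 72576506 to 72581254, minus strand). Zar1 had 43.8 to 86.6 normalized counts in DSS mice, with a median of 65.1, and 54.6 to 97.1 in control mice, with a median of 72.2. Of the 7 DSS mice, 6 lay below the control median and 2 below the whole control range. Its log2 difference, -0.22 (SE 0.14, 95% interval -0.50 to 0.06, limma adjusted p = 0.701), did not pass the threshold. Without DSS_11.2 it was -0.13 (SE 0.12, limma adjusted p = 0.869).

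Npm2 encodes nucleoplasmin 2, a histone chaperone that organizes nuclear and nucleolar structure in the egg and zygote (chromosome 14, 70647002 to 70653084, minus strand). Npm2 had 20.8 to 40.7 normalized counts in DSS mice, with a median of 33.4, and 27.0 to 40.9 in control mice, with a median of 29.95. Its median was higher in the DSS mice, of which 2 lay below the control range. DSS and control differed by 0.05 (SE 0.14, limma adjusted p = 0.948).

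Dppa3, also called Stella or PGC7, encodes a protein that shields the maternal genome from loss of DNA methylation in the zygote (chromosome 6, 122626410 to 122630572, plus strand). Dppa3 had 79.0 to 128 normalized counts in DSS mice, with a median of 88.6, and 73.8 to 136 in control mice, with a median of 101. No DSS mouse lay outside the control range. Between the groups the difference was -0.08 (SE 0.14, limma adjusted p = 0.908).

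Oosp1 encodes oocyte secreted protein 1, a small secreted protein of the oocyte (chromosome 19, 11667160 to 11691150, minus strand). Oosp1 had 42.7 to 78.1 normalized counts in DSS mice, with a median of 51.4, and 43.7 to 91.0 in control mice, with a median of 55.7. The groups overlap, with 2 DSS mice just below the control range. On that scale DSS minus control was -0.18 (SE 0.16, limma adjusted p = 0.801), and -0.12 (SE 0.16, limma adjusted p = 0.905) without DSS_11.2.

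Bcl2l10, also called Diva or Boo, encodes a BCL2 family protein abundant in oocytes (chromosome 9, 75347758 to 75351932, plus strand). Bcl2l10 had 314 to 567.9 normalized counts in DSS mice, with a median of 399, and 330 to 575 in control mice, with a median of 448. Only DSS_11.2 lay outside the control range, below it. The fitted log2 difference was -0.09 (SE 0.13, limma adjusted p = 0.880).

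**Figure D2:**
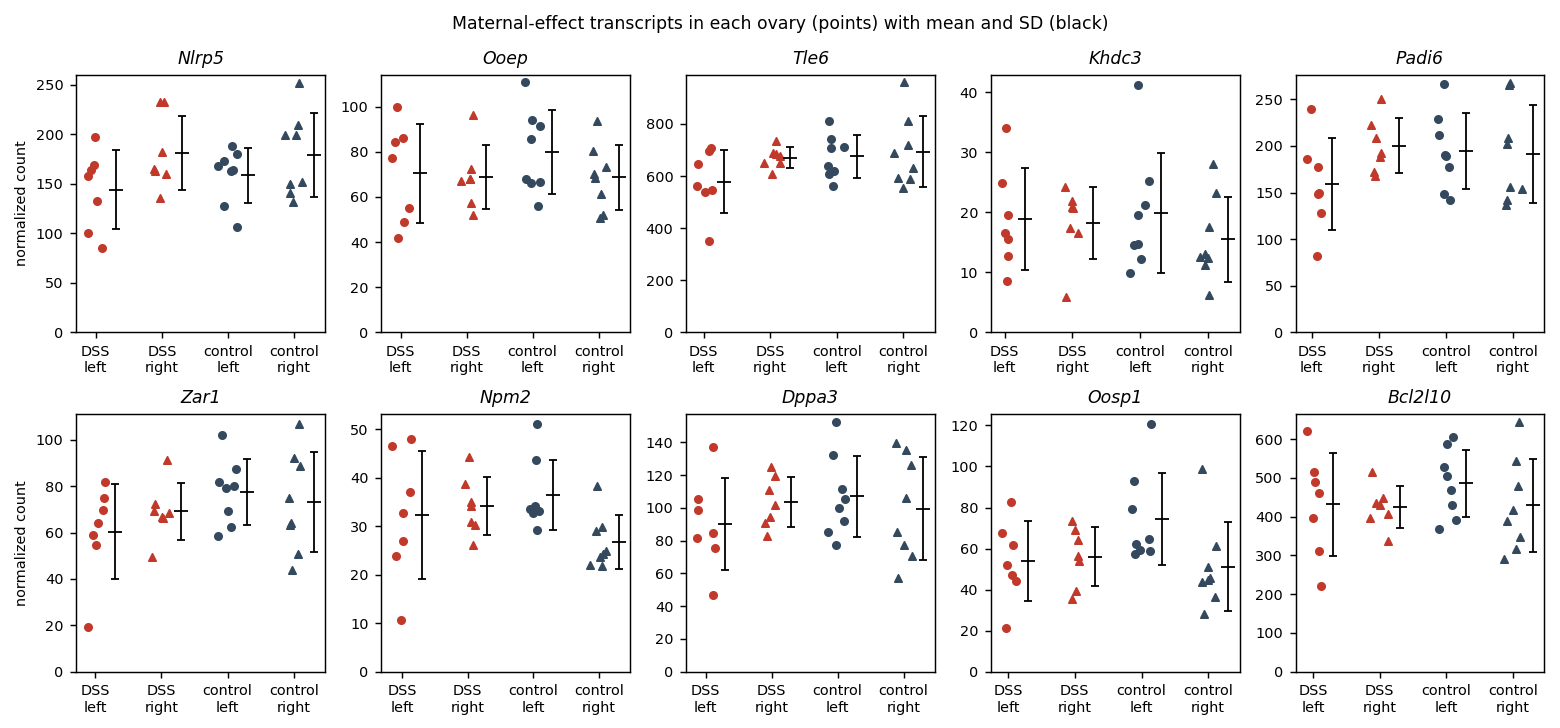
Normalized counts (vertical axes, from 0) of each member in DSS left, DSS right, control left and control right ovaries (7, 7, 8 and 8 points), with the mean and SD in black. The groups overlap in all 10 panels, and the lowest DSS left point, in most panels, is the left ovary of DSS_11.2.

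The question of the design was whether colitis before puberty leaves a mark on the mature ovary, and none of the 10 members passed the test for DSS against control. Over all tested genes the share called was 0% (limma on the mean of both ovaries per mouse, adjusted p under 0.05). No member had an unadjusted p under 0.05 either, while 1169 of the 14646 tested genes did. edgeR and DESeq2 on the recovered reads called 6 and 52 genes, none of them a member. The difference was below 0 for 8 members and above 0 for Khdc3 and Npm2, with a median of -0.09, whereas 49.4% of all tested genes were below 0, with a median of 0.0018. The members' levels rise and fall together over mice (median r of 0.756, below), so these directions are not 10 separate observations. The 95% intervals of the 10 members reached down to -0.51 (Oosp1) and up to 0.56 (Khdc3) on the log2 scale, so they bound the differences that these 15 mice leave possible and do not show that the groups are alike. Without DSS_11.2 the difference was again below 0 for 8 members and above 0 for Khdc3 and Npm2, with a median of -0.03. Npm2 then stood farthest from 0, at 0.15 (SE 0.13, limma adjusted p = 0.843).

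Set against the mean log2 level of 5 other oocyte transcripts (the zona pellucida genes Zp1, Zp2 and Zp3 and the growth factors Gdf9 and Bmp15), 2 members were below 0 and 8 above 0, with a median of 0.03. This scaling raised all genes alike, so that 13.7% of all tested genes were below 0, with a median of 0.13. Because the same value was taken from every gene of a mouse, the members' distance from the median of all genes could not change. Setting the members against that median therefore adds nothing to the unscaled comparison. Leaving out the 7 ovaries with more than 5000 Ovgp1, 6 members were below 0 and 4 above 0, with a median of -0.02, and none passed. That fit lost DSS_11.1 altogether. It kept only the right ovary of DSS_10.4 and DSS_11.2 and only the left ovary of control_10.5, control_13.4 and control_16.9. Side and treatment are therefore partly mixed in it.

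**Figure D3:**
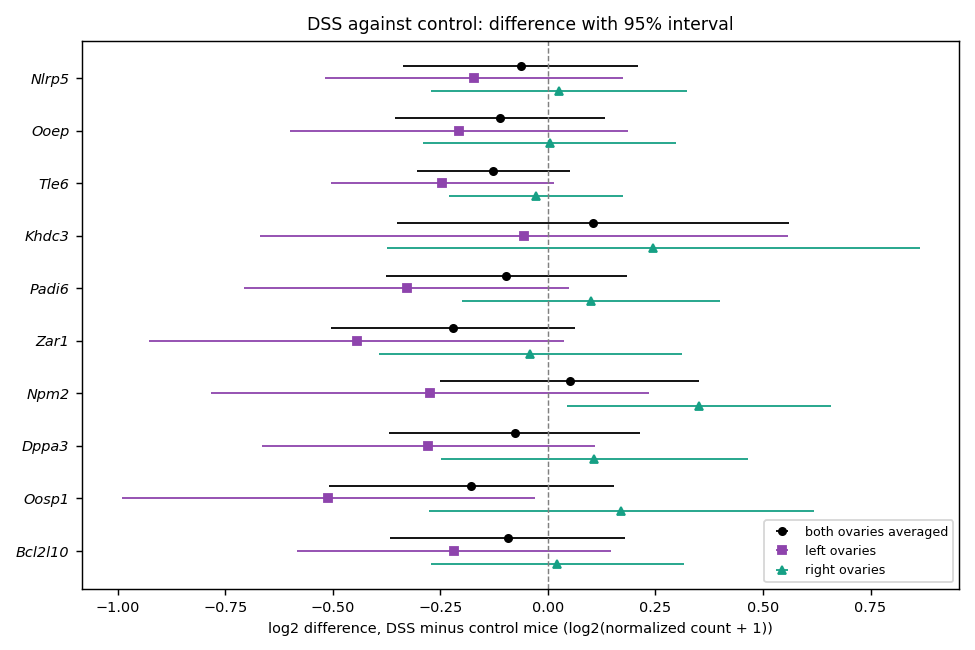
Difference of DSS minus control on the log2(normalized count + 1) scale (horizontal axis) for each member, from the mean of both ovaries (black), left ovaries (purple) and right ovaries (green), with 95% intervals. The left ovary points are below 0 for all 10 members and the right ovary points above 0 for 8, and the intervals that leave 0 out are those of Oosp1 on the left and Npm2 on the right, neither of which passed after adjustment.

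For DSS against control, limma also called none of the other oocyte genes examined, and among them only Trim28 had an unadjusted p under 0.05. Of 13 other genes of the complex and of the oocyte NLRP family, 10 were below 0, with a median of -0.14. The 3 with the smallest p were Nlrp9c (-0.30, SE 0.19), Nlrp14 (-0.20, SE 0.13) and Nlrp9b (-0.20, SE 0.16), with limma adjusted p of 0.701, 0.726 and 0.782. Of 16 tested genes of maternal mRNA storage, translation and decay, 10 were below 0, with a median of -0.08. They were led by Dcp1a (-0.23, SE 0.14), a decapping factor, Lsm14b (-0.11, SE 0.08), an mRNA storage protein, and Zar1l (-0.28, SE 0.21), a relative of Zar1, with limma adjusted p of 0.695, 0.729 and 0.750.

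Among 18 tested maternal chromatin and imprint factors, 12 were below 0, with a median of -0.04. Trim28, a corepressor that protects imprints, stood at -0.14 (SE 0.06, limma adjusted p = 0.574). The insulator protein gene Ctcf (0.09, SE 0.05) and the DNA methyltransferase gene Dnmt3a (0.09, SE 0.05) followed, with limma adjusted p of 0.707 and 0.713. Of 19 tested oocyte reference and transcription factor genes, 12 were below 0, with a median of -0.04, led by Uchl1 (-0.17, SE 0.09), Gdf9 (-0.22, SE 0.12) and Oog3 (-0.19, SE 0.17), with limma adjusted p of 0.648, 0.668 and 0.805.

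Markers of other cells also differed in level among these libraries. All 8 oviduct markers were above 0 for DSS against control, with a median of 0.998, and summed to 195 to 68336 normalized counts in DSS ovaries and 180 to 42713 in control ovaries. The other marker lists had medians of -0.15 (granulosa, 7 of 10 below 0), 0.23 (theca and luteal, 6 of 7 above 0), 1.07 (adipose, 6 of 6 above 0) and -1.86 (stratified epithelium, 7 of 7 below 0). They were 0.16 for immune markers (6 of 7 above 0) and 0.22 for blood and vessel markers (5 of 7 above 0). Of the 30 ovaries, the left ovary of DSS_11.2 had the highest oviduct (68336), adipose (10619), immune (1032) and blood and vessel (30689) sums. It also had the lowest granulosa (9422) and theca and luteal (4064) sums. None of these markers passed the threshold, and their part in the members' differences was not tested. Over the 30 ovaries, Spearman's rho of a member with Ovgp1 lay between -0.59 (Oosp1) and -0.15 (Khdc3).

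Left against right ovaries were compared within mice. No member was called, while 10.2% of the 14646 tested genes were (limma with the mouse as a block, 668 higher and 820 lower in left ovaries). The difference of left minus right was below 0 for 5 members and above 0 for 5, with a median of 0.03, beside 48.5% of all tested genes below 0. With all mice, Nlrp5 alone of the members had an unadjusted p under 0.05, beside 3464 of all tested genes (23.7%). In control mice alone 8 members were above 0, with a median of 0.17, and in DSS mice alone 1 was, with a median of -0.22. No member was called in either group, beside 2.78% of all tested genes in control mice and 0.771% in DSS mice. The side cannot be told apart from the running number in the labels, since every left ovary has an odd number and the right ovary of the mouse the next even one.

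Nlrp5 had 85.3 to 198 normalized counts in left ovaries, with a median of 164, and 131 to 252 in right ovaries, with a median of 165. It was lower in the left ovary in 12 of 15 mice, 6 of 7 DSS and 6 of 8 control. The log2 difference of left minus right was -0.25 (SE 0.08, limma adjusted p = 0.0570), just above the threshold. With a filter of a mean of at least 20 the adjusted p was 0.0461, without control_10.5 it was 0.0398 and without control_13.5 it was 0.0129. Over all alternatives run it ranged from 0.0129 to 0.443, the highest being the fit on control mice alone.

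For Oosp1 the difference lay on the other side of 0. Oosp1 had 21.3 to 121 normalized counts in left ovaries, with a median of 61.8, and 28.0 to 98.8 in right ovaries, with a median of 51.0. The left ovary was higher in 11 of 15 mice, and the log2 difference was 0.26 (SE 0.16, limma adjusted p = 0.375). In control mice alone it was 0.57 (SE 0.16, limma adjusted p = 0.0679), and in DSS mice alone -0.11 (SE 0.23, limma adjusted p = 0.849). With both groups but without DSS_11.2 it was 0.38 (SE 0.13, limma adjusted p = 0.0589). Without that mouse 3 members were below 0 and 7 above 0, with a median of 0.10 and none called. Zar1 and Dppa3, at -0.07 and -0.04 with all mice, then stood at 0.05 and 0.04.

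Among related genes, Nlrp14, another oocyte NLRP gene, was called lower in left ovaries (-0.34, SE 0.10, limma adjusted p = 0.0365), the only one of the 13 other complex and NLRP genes to pass. The oocyte gene Oog3 was also lower (-0.38, SE 0.12, limma adjusted p = 0.0423), the only one of 19 in its list. Over all tested genes 10.2% were called, so neither list holds more calls than that share. Of the 13 genes 11 were below 0, with a median of -0.16, and of the 19 genes 9 were, with a median of 0.01. Of the chromatin factors, Ctcf (-0.34), Smarca4 (-0.29) and Hira (-0.28) were called lower and Hdac1 (0.31) higher in left ovaries, with limma adjusted p of 0.00089, 0.00887, 0.0375 and 0.0366. These are expressed in many cell types beside oocytes. Of 7 stratified epithelium markers 6 were called higher in left ovaries, with a median log2 difference of 2.30 over the list. The granulosa marker Nr5a2 (-0.46, limma adjusted p = 0.0287), the theca marker Cyp17a1 (-0.52, 0.0188) and the globin gene Hba-a1 (-0.68, 0.0390) were called lower. The macrophage markers C1qa (0.30, 0.0304) and Csf1r (0.31, 0.0343) were called higher. No oviduct or adipose marker was called. The part of these markers in the oocyte genes' differences was not tested.

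The DSS difference was then set side against side. In left ovaries alone, DSS minus control was below 0 for all 10 members, with a median of -0.26. Without DSS_11.2 it was below 0 for 9 and above 0 for Khdc3, with a median of -0.13. In right ovaries alone it was below 0 for 2 and above 0 for 8, with a median of 0.06. The difference of these differences, tested on the left minus right value of every mouse, was below 0 for all 10 members, with a median of -0.34, while 50.2% of all tested genes were below 0. The same held for 18 of 19 oocyte reference and transcription factor genes (median -0.39) and 12 of 13 other complex and NLRP genes (median -0.37), and none of these was called. Without DSS_11.2 these counts were 16 of 19 (median -0.29) and 11 of 13 (median -0.21). The members' left minus right values rise and fall together (median r of 0.758, below), so their shared direction is not 10 separate observations. No member was called and 0% of all genes were (limma), although 2 members, Npm2 and Padi6, and 1098 of all genes had an unadjusted p under 0.05.

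Npm2 had 10.7 to 48.0 normalized counts in DSS left ovaries, with a median of 32.8, and 29.2 to 51.1 in control left ovaries, with a median of 33.5. In right ovaries it had 26.2 to 44.3 in DSS mice, with a median of 34.1, and 21.7 to 38.3 in control mice, with a median of 24.5. The left ovary was lower in 5 of 7 DSS mice and in 0 of 8 control mice. The difference of the DSS effect between left and right was -0.63 (SE 0.26, limma adjusted p = 0.646), and without DSS_11.2 it was -0.42 (SE 0.20, limma adjusted p = 0.882).

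Padi6 had 82.1 to 240 normalized counts in DSS left ovaries, with a median of 150, and 142 to 267 in control left ovaries, with a median of 190. In right ovaries it had 168 to 251 in DSS mice, with a median of 192, and 137 to 267 in control mice, with a median of 179. The left ovary was lower in 6 of 7 DSS mice and 4 of 8 control mice. The difference between sides was -0.43 (SE 0.19, limma adjusted p = 0.650), and -0.29 (SE 0.16, limma adjusted p = 0.882) without DSS_11.2.

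Oosp1 had 21.3 to 82.9 normalized counts in DSS left ovaries, with a median of 51.9, and 57.5 to 121 in control left ovaries, with a median of 63.5. In right ovaries it had 35.5 to 73.3 in DSS mice, with a median of 56.6, and 28.0 to 98.8 in control mice, with a median of 45.4. The left ovary was lower in 3 of 7 DSS mice and 1 of 8 control mice. The difference between sides was -0.68 (SE 0.33, limma adjusted p = 0.656), and -0.44 (SE 0.27, limma adjusted p = 0.882) without DSS_11.2.

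For the other 7 members the difference between sides lay between -0.40 (Zar1) and -0.20 (Nlrp5), with limma adjusted p from 0.679 to 0.874. Without DSS_11.2 all 10 members were again below 0, with a median of -0.15. Zar1 then stood at -0.15, Nlrp5 at -0.10, Khdc3 at -0.06, Tle6 at -0.10, Ooep at -0.14, Dppa3 at -0.22 and Bcl2l10 at -0.10. Without the 6 mice that had an ovary with more than 5000 Ovgp1, 7 members were below 0 and 3 above 0, with a median of -0.05. With all 15 mice, 8 of 8 oviduct markers were above 0 in this comparison, with a median of 2.67, and 10 of 10 granulosa markers below 0, with a median of -0.63. Without the same 6 mice, 3 of 5 oviduct markers tested were above 0, with a median of 0.502, and 8 of 10 granulosa markers below 0, with a median of -0.25. The oviduct markers summed to 415 to 68336 normalized counts in DSS left ovaries, 195 to 10751 in DSS right, 180 to 609 in control left and 197 to 42713 in control right ovaries. No oviduct marker was at 0 in all libraries of a group. Granulosa markers summed to 9422 to 22544, 15839 to 23364, 15025 to 25104 and 9633 to 25106 in the same 4 groups. Their part in the members' differences was not tested.

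**Figure D4:**
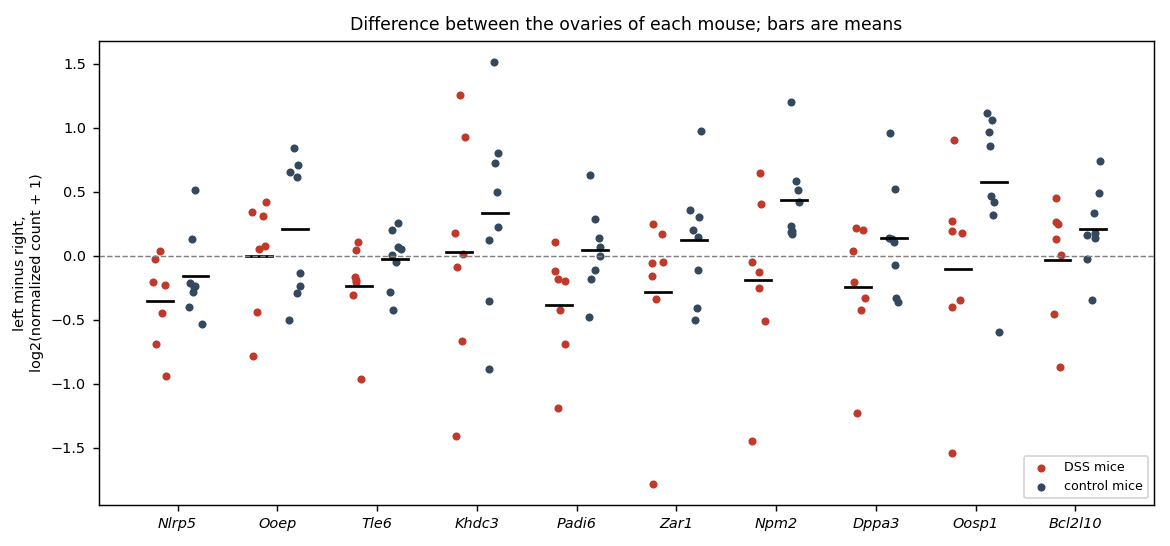
Left minus right difference of each member within each mouse on the log2(normalized count + 1) scale (vertical axis), for 7 DSS mice (red) and 8 control mice (blue), with group means as black bars. The mean bar of the DSS mice is below that of the control mice for all 10 members, and the points overlap in each.

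The members' levels went up and down together across mice. With the mean of both ovaries per mouse, Pearson's r of the 45 pairs of members had a median of 0.756 over 15 mice and was above 0 in 45 of 45 pairs. The median of Spearman's rho was 0.764. Of the 45 pairs, 38 had a permutation p under 0.05 for r after Benjamini-Hochberg adjustment over the pairs, and 38 for rho. The permutations shuffled all mice freely, without regard to the number before the dot in their labels, which is described below. For comparison, the members' r with all other tested genes had a median of -0.02. Over the 30 ovaries, rho was above 0.5 in 35 of 45 pairs of members. Each member reached that with between 0.601% (Khdc3) and 3.45% (Bcl2l10) of all other tested genes. The members were picked as transcripts of 1 cell type, so every pair shares the number of oocytes in an ovary as well as the library and its scaling.

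Oosp1 and Bcl2l10 were the most alike pair (r = 0.923, rho = 0.936, permutation p = 1e-05 for each, the smallest that 100000 permutations can give, adjusted p = 0.000225 and 0.00015). Tle6 and Oosp1 followed (r = 0.919, rho = 0.932), and Padi6 and Oosp1 next (r = 0.897, rho = 0.896). Inside the complex, Nlrp5 was close to Padi6 (r = 0.868, rho = 0.900, permutation p = 5e-05 for r, adjusted p = 0.000281). It was also close to Ooep (r = 0.858, rho = 0.882, permutation p = 7e-05 for each, adjusted p = 0.0003 and 0.000315). Tle6 and Padi6 had r = 0.861 and rho = 0.839.

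In the means of both ovaries, Npm2 was the member least like the others. Its r with them had a mean of 0.464 over mice, the lowest of the 10, and the pair of Khdc3 and Npm2 was the least alike (r = 0.281, rho = 0.307, permutation p = 0.310 and 0.265, adjusted p the same). The mean r with the other members was next lowest for Khdc3, at 0.575, and highest for Bcl2l10, at 0.810. Npm2 and Khdc3 were also the members with the fewest reads, 992 and 557 over all libraries, and the part of counting error in their lower r was not tested. Oosp1, with the next fewest reads (1818), had a mean r of 0.780, the third highest. Over the 30 ovaries, however, counting error alone would account for a smaller part of the variance of Oosp1 than of Npm2 or Khdc3. Oosp1 is therefore not a like case, and its r does not show what part counting error has in theirs.

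**Figure D5:**
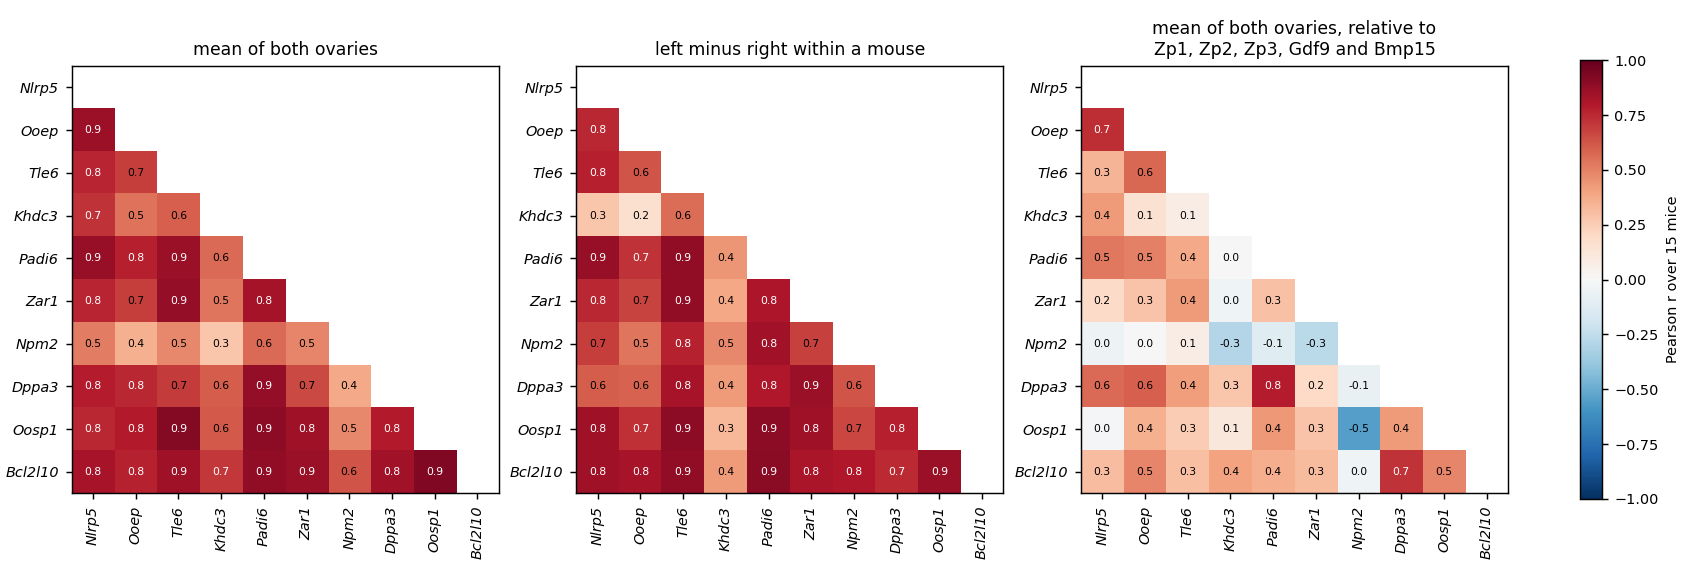
Pearson's r of each pair of members over 15 mice, for the mean of both ovaries (left panel), for the left minus right difference within a mouse (middle panel) and for the mean of both ovaries relative to Zp1, Zp2, Zp3, Gdf9 and Bmp15 (right panel). Nearly all cells of the first 2 panels are red, with medians of 0.756 and 0.758, and the right panel is paler, with a median of 0.299 and the lowest values in the rows and columns of Npm2.

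The likeness was present within each treatment group. With the mean of DSS and of control mice removed, the median r was 0.758, and it was 0.821 within DSS mice and 0.740 within control mice. It was 0.774 in left ovaries and 0.722 in right ovaries. Leaving out, for each pair, the 2 mice farthest from the median of the first gene gave a median r of 0.688, with 36 of 45 pairs above 0.5. Leaving out 1 mouse at a time, the median r lay between 0.720 and 0.773 (jackknife SE 0.062). As a description over the 30 ovaries, of which pairs share a mouse, the median r was 0.696 and the median rho 0.662.

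The numbers before the dot in the mouse labels (10, 11, 13, 15 and 16, whose meaning the labels do not give) also set the mice apart. The members summed to 1558 to 1718 normalized counts in the 4 mice numbered 10, 1355 to 1581 in the 3 numbered 11, 1732 to 2047 in the 3 numbered 13, 1961 to 2292 in the 3 numbered 15, and 1857 to 2167 in the 2 numbered 16. With the means of these numbers removed, the median r over mice was 0.463. Each number holds 2 to 4 mice, too few for an r within it. The treatments are not spread evenly over the numbers. Number 11 has DSS_11.1, DSS_11.2 and control_11.4, and number 15 has DSS_15.1, control_15.3 and control_15.4.

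The same likeness held between the ovaries of 1 mouse. The left minus right differences of the members, which are free of what the ovaries of a mouse share, had a median r of 0.758 over 15 mice, and 0.632 without DSS_11.2. Between the left and the right level of 1 member, on the other hand, Pearson's r over 15 mice ranged from -0.04 (Oosp1) to 0.45 (Nlrp5). Nlrp5 had r = 0.454 and rho = 0.432 (permutation p = 0.0891 and 0.110, adjusted p = 0.772 and 0.385 over the 10 members), and r = 0.550 without the 2 mice farthest from the median. Bcl2l10 had r = 0.348 and rho = 0.496 (permutation p = 0.206 and 0.0627, adjusted p = 0.772 and 0.385), and r = 0.593 without its 2 farthest mice. None of the 10 passed.

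Relative to Zp1, Zp2, Zp3, Gdf9 and Bmp15, the median r over mice was 0.299, with 35 of 45 pairs above 0 and 8 above 0.5. Padi6 and Dppa3 had the highest value there (r = 0.788), followed by Nlrp5 and Ooep (0.735) and by Dppa3 and Bcl2l10 (0.720). Npm2 and Oosp1 had the lowest (r = -0.55). Without the ovaries with more than 5000 Ovgp1 the median r was 0.583. Spearman's rho of a member with the mean of the 5 reference genes over the 30 ovaries ranged from 0.467 (Khdc3) to 0.849 (Bcl2l10).

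The genes whose pattern over the 30 ovaries was most like that of the members were found by the mean of Spearman's rho with the 10 members among all tested genes. AU022751 came first with 0.744, and Pla2g4c, a phospholipase A2 gene, second with 0.735. Eif4e1b, an oocyte form of the cap-binding translation factor, had 0.731, and Tcl1, a coactivator of AKT kinase, 0.724. Bmp15, the oocyte growth factor, had 0.713, Oas1e, of the oligoadenylate synthetase family, 0.705, Btg4, the adaptor of maternal mRNA decay, 0.703, and Fbxw15, an F-box gene, 0.700. By the mean rho with the other 9 members, Bcl2l10 ranked 5 and Padi6 7 among the 14646 tested genes. Oosp1, Tle6, Zar1, Nlrp5, Dppa3 and Ooep ranked between 22 and 53, Khdc3 202 and Npm2 462.

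By list, the mean rho with the members had a median of 0.538 over the 13 other complex and NLRP genes, from 0.259 (Nlrp4b) to 0.678 (Nlrp14). The median was 0.504 over the 19 oocyte reference and transcription factor genes and 0.315 over the 16 mRNA storage, translation and decay genes, which range from -0.17 (Ddx6, made in most cell types) to 0.731 (Eif4e1b). It was 0.208 over the 18 chromatin and imprint factors, from -0.24 (Hdac1) to 0.6495 (Zfp57, the zinc finger protein that maintains imprints), and 0.300 over the granulosa markers. The oviduct, adipose and theca and luteal markers had medians of -0.33, -0.22 and -0.19, the immune and the blood and vessel markers -0.16 and -0.15, and the stratified epithelium markers 0.275. Over all 14636 tested genes outside the members the median was -0.01. All these points share the 30 libraries and their scaling.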

How the data were processed

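RNA of 30 ovaries of 15 mice was measured by CEL-Seq with a pool of 3 barcoded primers per ovary, per the labels' protocols. Per the submitters' processing notes the build was GRCm38.p5 and the tools were TopHat, HTSeq and DESeq2; versions, strand and molecular identifiers are not given in the sources used here. The authors deposited 1 signal per gene and library, a normalized count to 2 decimals. Dividing by each library's step returned whole reads for 99.929% to 100% of genes above 0 (tolerance 0.0051), and 3 libraries had a step within 1% of 1. Per the file, member spans end 300 nt past the annotated 3' end.

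The mouse was the replicate. limma 3.58.1 (R 4.3.3, trend, two-sided) was run on log2(value + 1) for genes with a mean of at least 5, with Benjamini-Hochberg adjustment over all tested genes and a threshold of 0.05; this scale understates changes of low genes. DSS against control used the mean of both ovaries (7 and 8 mice), left against right a block for the mouse, which the labels name, and the difference between sides each mouse's left minus right value. Correlations used 100000 two-sided permutations of mice. edgeR 4.0.16 and DESeq2 1.42.0 on recovered reads were alternatives. The limma steps were tested on simulated data. The members, lists and tests were chosen with earlier results of these data known. The text names all 10 members, from each other list described the 3 genes with the smallest p for DSS against control and those called for left against right, and the 8 genes most like the members. Of the marker lists of other cells it gives counts, medians and sums. From these it names Ovgp1 and the markers called for left against right, except those of stratified epithelium. Nothing says whether mice were housed or prepared together. Promoter sequences are from RefSeq (GRCm38.p6).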

Additional observations from a re-analysis of the deposited data

Results flagged for a closer look

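In 60 sets of 7 or 8 ovaries (10 members, with ovaries or mice of each treatment and side), 2 had a library far from the others of its set by Dixon's criterion, which flags about 1 in 20 sets by chance. Khdc3 was lowest, at 5.96 normalized counts, in the right ovary of DSS_10.4, against 16.5 to 24.3 in the other DSS right ovaries. This value rests on 6 reads, with an exact 95% Poisson interval of 2.19 to 12.97 normalized counts that covers counting error only. Oosp1 was highest, at 98.8 normalized counts, in the right ovary of control_15.4, against 28.0 to 61.4 in the other control right ovaries. It rests on 98 reads (exact 95% Poisson interval 80.2 to 120 normalized counts). The same ovary had the highest level of 4 of the 10 members and the highest summed level of all 30 ovaries.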

How the results depend on the processing

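Other pseudocounts, TMM scaling, quantile normalization and other filters called 0 genes for DSS against control, as the values reported did. The count was 11 in left ovaries (9 without DSS_11.2) and 1 in right ovaries alone, 6 by edgeR, 52 by DESeq2, 3 with the number before the dot as a block, 10 without ovaries over 5000 Ovgp1, and 0 to 13 leaving out 1 mouse (13 without DSS_15.1, 1 without DSS_13.2 or control_10.5). No member was called in any of these fits. Against 1488 for left against right, the count was 1163 with no replicate block, 1184 to 1580 leaving out 1 mouse, 114 in DSS mice, 404 in control mice and 738 without mice with an ovary over 5000 Ovgp1. Without those mice 1 gene was called for the difference between sides. The median r of the members moved to 0.583 without ovaries over 5000 Ovgp1, 0.299 relative to the reference genes, 0.632 for left minus right without DSS_11.2 and 0.463 with the means of the number before the dot removed. The settings without DSS_11.2 or those mice for the difference between sides, without DSS_11.2 for left ovaries and the correlations, and the means of the number before the dot were chosen after seeing the data.

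Member values turned direction in 35 of 617 settings, none with a call. For DSS minus control these were, in left ovaries, Khdc3 -0.055 and Npm2 -0.27 (-0.043 without DSS_11.2). In right ovaries they were Nlrp5 0.027, Ooep 0.0042, Padi6 0.10, Dppa3 0.11, Oosp1 0.17 and Bcl2l10 0.022. With the number before the dot as a block they were Nlrp5 0.024 and Padi6 0.0044, and Npm2 stood at -0.0032 without DSS_11.1 and -0.0034 without DSS_16.3. Without ovaries over 5000 Ovgp1 they were Nlrp5 0.12 and Padi6 0.047, and relative to the reference genes Nlrp5 0.064, Ooep 0.015, Tle6 0.00018, Padi6 0.031, Dppa3 0.0495 and Bcl2l10 0.033. For left minus right they were, in DSS mice, Ooep -0.0049, Npm2 -0.19, Oosp1 -0.11 and Bcl2l10 -0.034, and in control mice Padi6 0.042, Zar1 0.12 and Dppa3 0.14. Without DSS_11.2 Zar1 stood at 0.054 and Dppa3 at 0.042, and without mice with an ovary over 5000 Ovgp1 at 0.0023 and 0.011. For the difference between sides without those mice they were Ooep 0.17, Dppa3 0.034 and Bcl2l10 0.10. The cause was not tested. The limits are the 7 and 8 mice and, for Khdc3 and Npm2, the few reads per library.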
